A study of Rattus norvegicus with 6 samples.

Results

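The SMADs and a set of genes that act in their feedback were examined in rat hearts, 9 genes in all out of 32883 named rows of the count table. They were taken by symbol and comprised Smad2, Smad3, Smad4, Smad6, Smad7, Ski, Skil, Bambi and Serpine2. Each symbol occurred on 1 row and all 9 passed the filter on low counts that left 13766 genes for testing. The data were bulk RNA-seq libraries from 6 male Sprague–Dawley rats, an outbred wild-type strain, aged 8 weeks and weighing 250 to 300 g. The ISO group was 3 rats injected under the skin with ISO at 1.5 mg/kg/day for 7 days, and the saline group was 3 rats injected with an equal volume of saline for 7 days. ISO, which the labels do not spell out, is taken to be isoproterenol, a drug that activates beta-adrenergic receptors and is used to bring on hypertrophy and fibrosis of the heart. Each library came from a separate rat, and the sources used here do not say which heart chambers went into it.

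TGF-beta ligands bind receptor kinases at the cell surface, which phosphorylate Smad2 and Smad3, and these then join Smad4 and enter the nucleus to drive target genes. In the heart the pathway is best known for switching fibroblasts to matrix production. The same signal raises its own brakes at the RNA level, among them Smad7, Skil and, in many cells, Bambi and Smad6. The signalling SMADs themselves are mostly governed by phosphorylation and protein turnover, which RNA counts do not measure.

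None of the 9 genes was called between ISO and saline hearts by edgeR's quasi-likelihood test at an adjusted p under 0.05, a rule that called 2.97% of all tested genes (1.47% higher and 1.5% lower), so a count of 0 of 9 is close to the background. These were 203 genes called higher and 206 lower, against 280 and 123 without TMM scaling. DESeq2, which called 10.2% of all tested genes, and limma's voom, which called 2.39%, called none of the 9 either. With p under 0.05 before adjustment, edgeR passed 1 of the 9, Serpine2, where the background was 22.9%. The fold changes ran from −0.38 for Bambi to 0.43 for Serpine2 on the log2 scale, 6 positive and 3 negative, with a median of 0.06 beside 0.02 over all tested genes. The 95% intervals of all 9 genes, each taken alone, lay between 0.564-fold and 1.69-fold. In the same hearts 22 target genes of the TGF-beta SMADs, a list chosen with earlier results of these data known, had a median of 1.05.

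**Figure D1:**
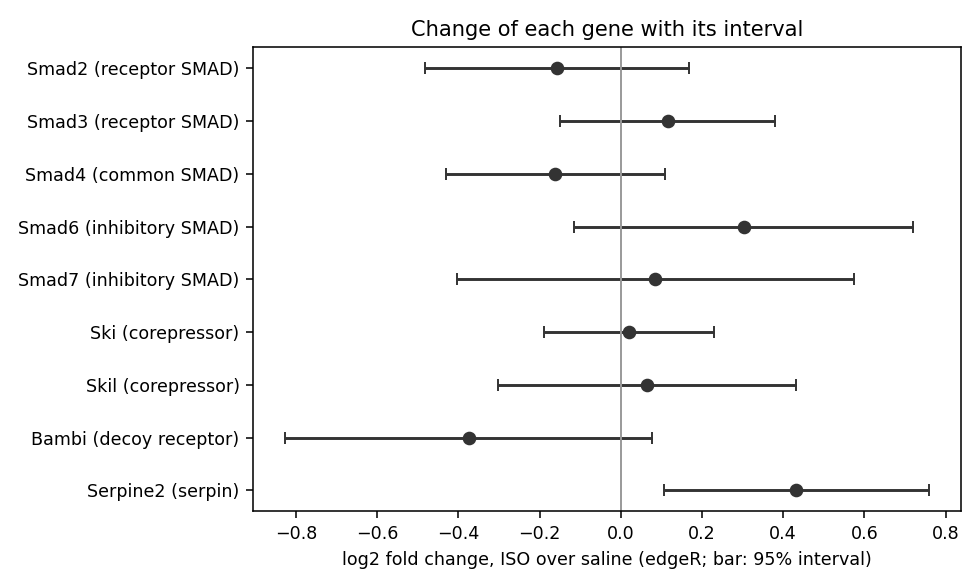
Log2 fold change of each of the 9 genes, ISO over saline, with its 95% interval from edgeR. The interval of Serpine2, from 0.11 to 0.76, is the only one of the 9 that does not cross 0, and no gene passed at an adjusted p under 0.05.

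The libraries held 15259502 to 16454903 counts in ISO and 14880391 to 17299589 in saline. The label of heart tissue matched its markers, with a summed level of 9 cardiomyocyte markers of 35316 to 52351 CPM in ISO and 51770 to 63457 CPM in saline, CPM here being read counts scaled to library size by the TMM method. ISO replicate 1 stood apart in 6 atrial markers, at 209.5 CPM against 12.9 to 18.5 CPM in the other 5 libraries. ISO replicate 3 stood apart in 7 activated fibroblast markers, at 2673 CPM against 579 and 469 CPM in ISO replicates 1 and 2 and 120.3 to 152 CPM in saline. In bulk tissue a change in the number of cells of a type and a change in RNA per cell cannot be told apart. Transcript lengths were not used, so CPM values compare libraries and do not rank genes by abundance.

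RefSeq promoter windows in the GRCr8 assembly were found for 8 of the 9 genes. Those of the 3 feedback genes Smad7, Skil and Bambi, and of Serpine2, which had the largest fold change of the 9 but was not called, are shown for the 250 bases before the annotated start, 5′ to 3′ on the gene's strand. Capitals mark GGCGCC, a GC-rich motif bound by SMAD proteins, and TGACGTCA, the full cyclic AMP response element, shown because beta-adrenergic receptors signal through cyclic AMP. The windows are chr18:71263258-71263507 (plus strand), chr2:114203573-114203822 (minus strand), chr17:58821004-58821253 (minus strand) and chr9:88637203-88637452 (minus strand).
Smad7: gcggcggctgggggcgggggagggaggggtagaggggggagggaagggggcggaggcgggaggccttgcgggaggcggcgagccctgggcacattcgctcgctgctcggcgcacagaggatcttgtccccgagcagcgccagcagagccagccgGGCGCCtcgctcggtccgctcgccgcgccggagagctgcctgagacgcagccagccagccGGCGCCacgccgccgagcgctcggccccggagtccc
Skil: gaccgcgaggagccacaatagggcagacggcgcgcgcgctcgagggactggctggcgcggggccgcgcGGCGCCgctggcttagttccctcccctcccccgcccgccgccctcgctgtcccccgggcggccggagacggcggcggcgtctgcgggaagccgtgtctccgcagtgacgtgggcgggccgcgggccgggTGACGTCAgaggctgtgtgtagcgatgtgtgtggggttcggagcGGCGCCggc
Bambi: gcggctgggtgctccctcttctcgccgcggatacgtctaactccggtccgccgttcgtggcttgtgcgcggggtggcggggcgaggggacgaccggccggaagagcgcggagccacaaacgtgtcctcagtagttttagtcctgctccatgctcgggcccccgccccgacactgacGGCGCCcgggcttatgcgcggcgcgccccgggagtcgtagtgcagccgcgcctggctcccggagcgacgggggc
Serpine2: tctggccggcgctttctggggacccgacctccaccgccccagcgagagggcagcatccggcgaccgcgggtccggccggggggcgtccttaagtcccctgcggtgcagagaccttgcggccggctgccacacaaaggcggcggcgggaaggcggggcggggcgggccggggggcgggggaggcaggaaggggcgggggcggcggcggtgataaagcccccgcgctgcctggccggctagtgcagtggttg

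GGCGCC stood at 2 places in Smad7, with first bases 96 and 36 bases before the start, at 182 and 9 bases in Skil and at 74 bases in Bambi. It was also in both Smad2 windows, so that 4 of the 8 genes held it, against 8.69% of all 33469 windows of that length in the table. The windows of the 8 genes are rich in G and C, from 68.4% to 82.8% apart from Smad4 at 30.8%, and the share among windows of like composition was not computed. Whether the Smad4 window is a true promoter was not checked. The cyclic AMP element stood 53 bases before the Skil start and in 1.59% of all windows. The SMAD palindrome GTCTAGAC, the CAGA box core CAGACA and the AP-1 site TGACTCA, searched on both strands, were in none of the 9 windows and in 0.173%, 17.2% and 4.05% of all windows. These are matches of letters only, and none of the searched motifs overlap each other in the windows shown.

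The signalling SMADs lay close to their saline levels. Smad2 (ENSRNOG00000018140), which the TGF-beta and activin receptors phosphorylate, had 18.2, 19.6 and 23.3 CPM in ISO replicates 1 to 3, against 20.5, 25.3 and 22.3 CPM in saline replicates 1 to 3. Smad3 (ENSRNOG00000008620), its close relative and the main SMAD of fibroblast matrix genes, had 29.2, 30.6 and 30.05 CPM in ISO, against 27.3, 30.8 and 24.9 CPM in saline. Smad4 (ENSRNOG00000051965), the shared partner of the TGF-beta and BMP SMADs, had 45.9, 44.1 and 54.7 CPM in ISO, against 52.7, 58.0 and 51.2 CPM in saline. The groups overlapped for all 3 genes. Smad2 and Smad4 were lowest in ISO replicates 1 and 2, while ISO replicate 3 lay inside their saline range.

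Smad2 had a log2 fold change of −0.16 (95% interval −0.48 to 0.17, edgeR adjusted p = 0.553) and Smad4 one of −0.16 (−0.43 to 0.11, edgeR adjusted p = 0.45). Smad3 had one of 0.12 (−0.15 to 0.38, edgeR adjusted p = 0.595). Within a library, the log2 ratio of Smad2 to Smad3 was −0.68, −0.64 and −0.37 in ISO replicates 1 to 3, against −0.41, −0.28 and −0.16 in saline replicates 1 to 3. The ISO mean minus the saline mean was −0.28, and the groups overlapped through ISO replicate 3 and saline replicate 1. No test was run on this ratio.

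**Figure D2:**
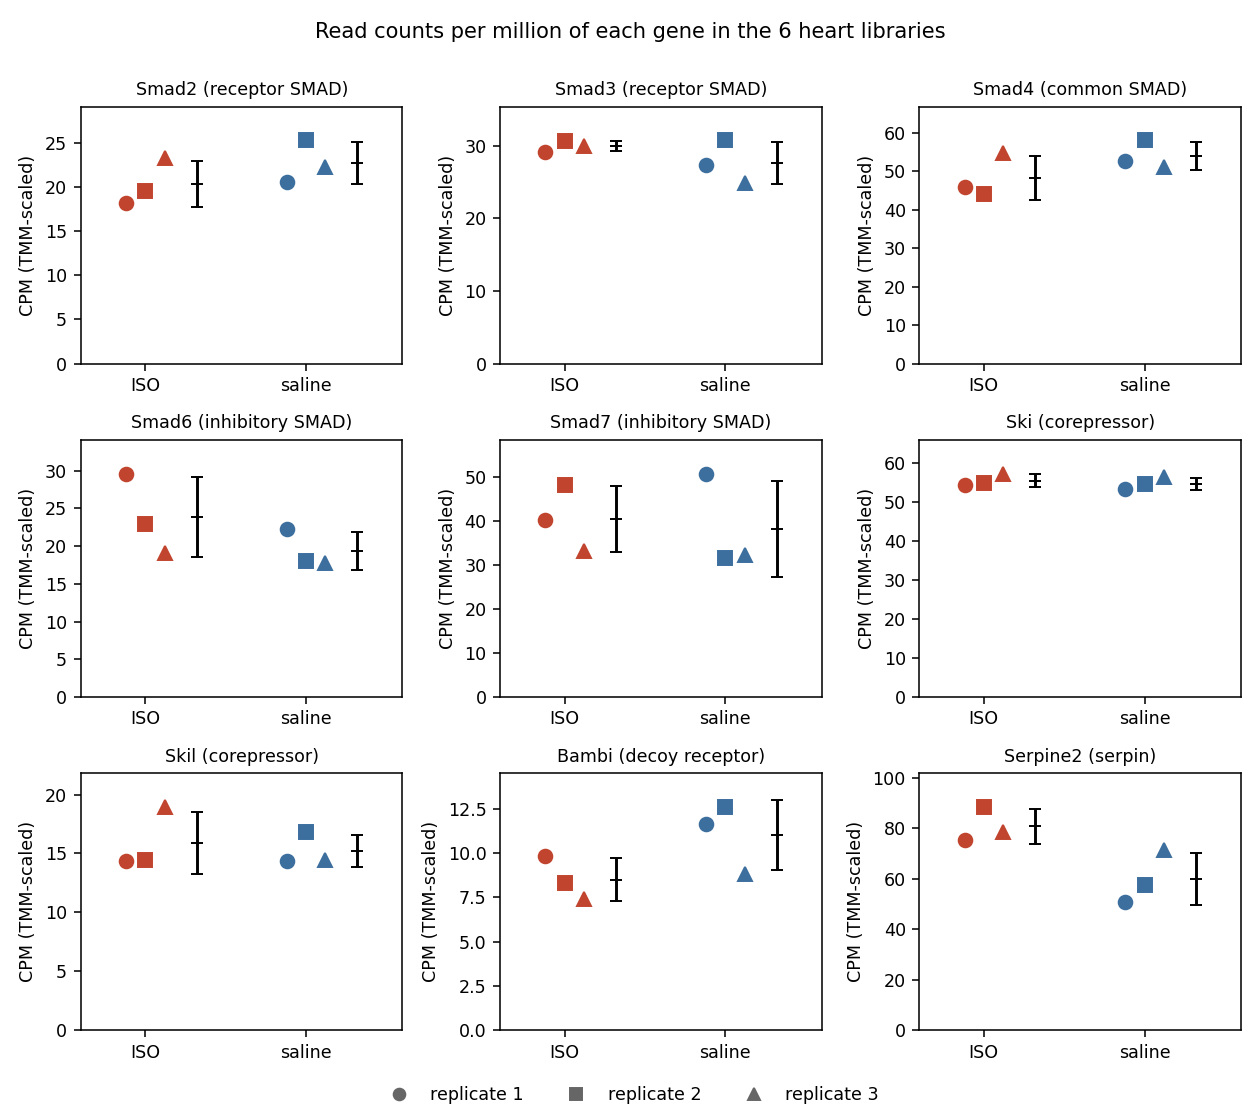
TMM-scaled CPM of each of the 9 genes in the 3 ISO libraries and the 3 saline libraries, with the replicate given by the symbol and the mean ± SD as a black bar. Serpine2 is the only one of the 9 whose ISO libraries, from 75.5 to 88.6 CPM, all lie above its saline libraries, from 50.8 to 71.3 CPM.

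Neither inhibitory SMAD was called, and the groups overlapped for both. Smad7 (ENSRNOG00000018359), which blocks the TGF-beta receptor and is itself a SMAD target, had 40.03, 48.1 and 33.1 CPM in ISO, against 50.7, 31.5 and 32.2 CPM in saline. Its highest library was saline replicate 1 and its lowest saline replicate 2, so the saline group alone spanned the values of ISO. The log2 fold change was 0.09 (95% interval −0.40 to 0.57, edgeR adjusted p = 0.851). Leaving out saline replicate 1 gave 0.34, and leaving out ISO replicate 2, saline replicate 2 or saline replicate 3 gave −0.06, −0.04 and −0.02.

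Smad6 (ENSRNOG00000009173), an inhibitor directed mainly at BMP signalling and strong in endothelium, had 29.6, 22.95 and 19.1 CPM in ISO, against 22.3, 18.01 and 17.8 CPM in saline. ISO replicate 1 was highest, ISO replicate 2 only just above the highest saline library, and ISO replicate 3 lay inside the saline range. The log2 fold change was 0.30 (−0.11 to 0.72, edgeR adjusted p = 0.356) and was 0.11 (edgeR adjusted p = 0.798) without ISO replicate 1, the library with atrial markers. Of 9 endothelial markers, Vwf stood at 709 CPM in that library against 219 to 343 CPM in the other libraries. The other 8 markers summed to 1012 CPM there, inside the 949 to 1143 CPM of the other libraries and below 4 of those 5. Over the whole list the sum was 1185 to 1721 CPM in ISO and 1257 to 1421 CPM in saline, and only Cldn5 of the 9 had no counts. The part of these cells in the Smad6 value was not tested.

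The log2 ratio of Smad7 to Smad6 within a library was 0.43, 1.06 and 0.79 in ISO replicates 1 to 3, against 1.18, 0.80 and 0.85 in saline replicates 1 to 3. The groups overlapped, and ISO replicate 1 was low through its Smad6. Ratios of Smad7 to Smad3 overlapped as well, with means of 0.41 ± 0.26 in ISO and 0.43 ± 0.43 in saline (SD, n = 3 each).

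**Figure D3:**
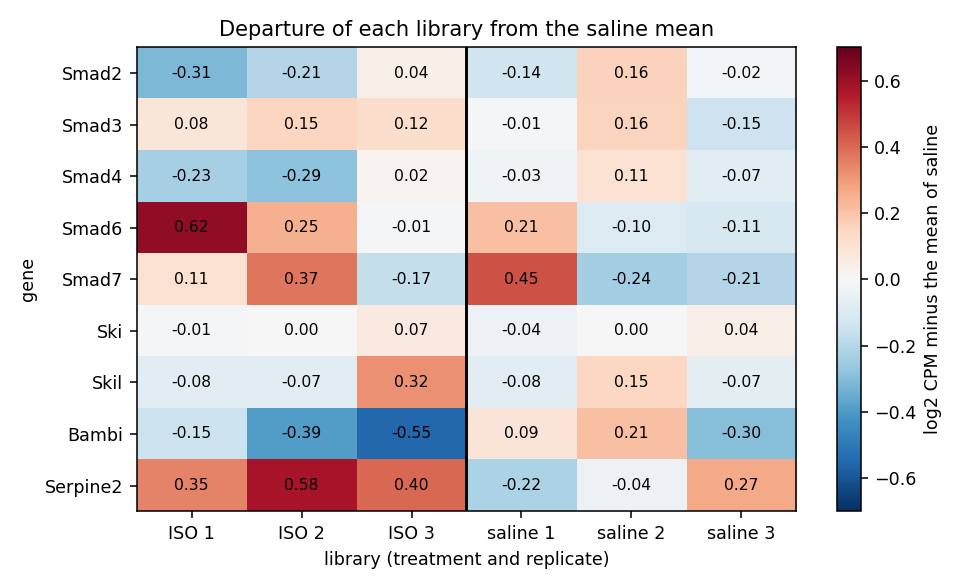
Log2 CPM (prior count 2) of each of the 9 genes in each library, as the difference from that gene's saline mean. Smad6 in ISO replicate 1 (0.62), Serpine2 in ISO replicate 2 (0.58) and Bambi in ISO replicate 3 (−0.55) are the largest departures, and Ski stays within 0.07 in all 6 libraries.

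The corepressors showed the smallest differences. Ski (ENSRNOG00000055340), which binds SMAD complexes and recruits histone deacetylases, had 54.3, 54.8 and 57.2 CPM in ISO, against 53.2, 54.5 and 56.3 CPM in saline. The 6 values lay close together, and the log2 fold change of 0.02 had the narrowest interval of the 9 genes, −0.19 to 0.23 (edgeR adjusted p = 0.92), or 0.877-fold to 1.17-fold. Skil (ENSRNOG00000009899), which encodes SnoN, a corepressor that TGF-beta destroys as protein and then induces as RNA, had 14.3, 14.4 and 18.96 CPM in ISO, against 14.4, 16.8 and 14.5 CPM in saline. ISO replicate 3 was the highest library and the other ISO libraries sat at the low end of saline. The log2 fold change of Skil was 0.06 (−0.30 to 0.43, edgeR adjusted p = 0.851), and without ISO replicate 3 the value was −0.08.

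Bambi (ENSRNOG00000016066) encodes a receptor without a kinase domain that takes the place of a type I receptor and dampens TGF-beta signalling. It had 9.84, 8.29 and 7.41 CPM in ISO, against 11.6, 12.6 and 8.84 CPM in saline. Saline replicate 3 lay below ISO replicate 1, so the groups overlapped by that single pair. The log2 fold change was −0.38 (95% interval −0.83 to 0.08, edgeR adjusted p = 0.293), and −0.51 (edgeR adjusted p = 0.271) without saline replicate 3. It had the fewest reads of the 9 genes, 127 to 157 in ISO libraries and 140 to 202 in saline libraries. Its standard error was 0.197, beside 0.213 for Smad7, which had 503 to 772 reads. The part of read number in its precision was not tested.

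Serpine2 (ENSRNOG00000015461) encodes protease nexin 1, a secreted inhibitor of thrombin, urokinase and plasmin that TGF-beta can induce. It had 75.5, 88.6 and 78.5 CPM in ISO, against 50.8, 57.5 and 71.3 CPM in saline. Every ISO library was above every saline library, with a narrow gap between ISO replicate 1 and saline replicate 3. Groups failed to overlap with ISO above in 14.1% of all tested genes, so 1 gene of 9 is not unusual. The log2 fold change was 0.43, which is 1.35-fold (95% interval 1.08-fold to 1.69-fold), with an unadjusted p of 0.0154 and an edgeR adjusted p of 0.126.

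Serpine2 kept a positive log2 fold change in each of the 6 fits that left out a library, from 0.32 without saline replicate 1 to 0.58 without saline replicate 3, and was called in none. DESeq2 gave an adjusted p of 0.0689. Fibroblast markers in the same ISO hearts lay above saline: all 10 had a positive log2 fold change, 2 of them called, none was at 0, and their summed level was 6535 to 12388 CPM in ISO and 3961 to 4298 CPM in saline. The marker sum was highest in ISO replicate 3 and Serpine2 in ISO replicate 2. The part of fibroblast number in the Serpine2 value was not tested.

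Profiles nearest to Serpine2 and Bambi, the genes with the smallest p among the 9, were sought by the root mean square difference of log2 CPM from the saline mean over the 6 libraries, among 9758 genes averaging 5 CPM or more. Amz1, Amacr and Trim25 lay nearest to Serpine2, at 0.053, 0.0672 and 0.073. Riok2, Tbc1d24 and Adam33 lay nearest to Bambi, at 0.0609, 0.0634 and 0.0866. None of these 6 genes was called.

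The other SMADs and SMAD regulators gave a like picture, with none of 19 tested genes called by edgeR, DESeq2 or voom and a median of 0.07. With p under 0.05 before adjustment edgeR passed 5 of the 19, beside 22.9% of all tested genes. These 5 were singled out after their values were seen. They were the ubiquitin ligase gene Smurf1 at 0.27, the corepressor gene Tgif1 at 0.74 and the SMAD-binding repressor gene Zeb2 at 0.35, and, below 0, Smad5 and the ubiquitin ligase gene Smurf2 at −0.35. The adjusted p of these 5 by edgeR ran from 0.103 to 0.208. Of the BMP-driven SMADs, Smad1 had 35.6, 41.3 and 41.6 CPM in ISO, against 31.1, 37.8 and 33.7 CPM in saline (edgeR adjusted p = 0.332). Smad5 had 19.7, 21.3 and 22.1 CPM in ISO, against 25.7, 30.1 and 26.7 CPM in saline, with the groups apart, and gave −0.39 (95% interval −0.65 to −0.12, edgeR adjusted p = 0.103). Smad9 had at most 0.068 CPM in any library and was not tested. The kinase gene Hipk2 was at −0.13 (edgeR adjusted p = 0.726) and the phosphatase gene Ppm1a was at 0.12 (edgeR adjusted p = 0.545).

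Upstream of the SMADs, 3 of 14 tested ligand, receptor and latent binding protein genes were called higher and none lower, with a median of 0.18. Of all tested genes, 1.47% were called higher and 1.5% lower. The called genes were the ligand gene Tgfb3 and Ltbp2 and Ltbp3, 2 genes of the latent TGF-beta binding protein family. Tgfb3 had 129.5, 78.1 and 131.7 CPM in ISO, against 50.2, 55.6 and 43.2 CPM in saline. Ltbp2 had 56.2, 45.7 and 155.1 CPM in ISO, against 17.8, 8.44 and 4.30 CPM in saline, and its log2 fold change of 3.08 was 2.33 without ISO replicate 3 and 3.74 without saline replicate 1. The list held 0, 4 and 2 calls without ISO replicate 1, 2 or 3, 0 without any saline replicate, and 5 by DESeq2. Over all genes the calls higher were 9, 492 and 171 in those ISO omissions, 14, 6 and 7 in the saline omissions, and 752 by DESeq2. Tgfb1, the most studied ligand in fibrosis, had 60.4, 59.6 and 73.98 CPM in ISO, against 42.7, 43.1 and 52.9 CPM in saline. Its groups did not overlap, and its log2 fold change of 0.48 (95% interval 0.18 to 0.79) was not called by edgeR (adjusted p = 0.0851). DESeq2 did call Tgfb1 higher (adjusted p = 0.0281). Tgfb2 was at 0.15 (edgeR adjusted p = 0.813), and the receptors Tgfbr1 and Tgfbr2 were at 0.41 and 0.21 (edgeR adjusted p = 0.473 and 0.348). Tgfbr1 stood at 24.8, 21.9 and 53.8 CPM in ISO, against 24.9, 27.8 and 22.8 CPM in saline, so only ISO replicate 3 lay above the saline range.

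On the BMP side, 1 of 15 tested genes was called higher and 1 lower, beside 1.47% and 1.5% of all tested genes, with a median of 0.20. Bmpr1a, the type I BMP receptor that phosphorylates Smad1 and Smad5, had 33.01, 34.6 and 33.9 CPM in ISO, against 60.95, 54.96 and 54.8 CPM in saline. The groups were far apart, and Bmpr1a fell by 0.75 on the log2 scale (95% interval −0.97 to −0.53, edgeR adjusted p = 0.0142). Atoh8, a transcription factor gene that BMP signalling induces, rose by 0.82, with 13.9, 12.5 and 12.7 CPM in ISO, against 7.08, 7.82 and 7.20 CPM in saline (edgeR adjusted p = 0.0317). The classic BMP targets Id1 and Id3 were at 0.12 and 0.54 (edgeR adjusted p = 0.583 and 0.061). Id3 was called higher by DESeq2 (adjusted p = 0.00628) and without ISO replicate 2 (edgeR adjusted p = 0.0201). DESeq2 called 2 genes of this list higher and 1 lower, and 10.2% of all tested genes in either direction. Bmpr1a lost its call, at −0.74 (edgeR adjusted p = 0.0617), without ISO replicate 1 and, at −0.70 to −0.78, without any saline replicate (edgeR adjusted p = 0.068, 0.0527 and 0.0768 without saline replicates 1 to 3). Atoh8 lost it without ISO replicate 1 or 3 (edgeR adjusted p = 0.117 and 0.0508) or any saline replicate (0.115, 0.0814 and 0.14).

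Target genes of the TGF-beta SMADs had the largest median of the 5 related lists. Of 22 tested, 3 were called higher, Col3a1, Postn and the matrix gene Cilp, and none lower, with a median of 1.05. Those called higher and lower were 1.47% and 1.5% of all tested genes. The groups did not overlap in 13 with ISO above, against 14.1% of all tested genes, and in 1 with ISO below, against 14.6%. The 5 related lists were chosen with earlier results of these data known, so these values describe the list and test nothing. Ccn2, often used as a readout of SMAD3, was at 0.46 with 66.03, 53.6 and 181.7 CPM in ISO, against 68.04, 87.5 and 63.4 CPM in saline (edgeR adjusted p = 0.55). Called members numbered 1, 10 and 6 without ISO replicate 1, 2 or 3, 0 without any saline replicate, and 11 by DESeq2. The calls over all genes shifted too, with 9, 492 and 171 called higher in those ISO omissions. They were 14, 6 and 7 in the saline omissions and 752 by DESeq2. Col1a1, a fibrillar collagen, was at 2.38 (edgeR adjusted p = 0.0584), with 1648, 1389 and 6356 CPM in ISO, against 647, 669.9 and 483 CPM in saline. Without ISO replicate 3 it was 1.34 and called (edgeR adjusted p = 0.0146), and without ISO replicate 2 it was 2.74 and called (edgeR adjusted p = 0.0293). Postn, which encodes the matrix protein periostin, had 327, 252 and 2025 CPM in ISO, against 23.3, 12.6 and 13.7 CPM in saline. ISO replicate 3 was far above the other libraries, and the log2 fold change of Postn was 5.71 in the full data and 4.13 without that library.

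Markers of some cell types were higher in ISO and those of others were not. The median log2 fold change was 0.84 for fibroblast, 1.10 for activated fibroblast and 1.13 for macrophage markers. It was 0.09 for smooth muscle and pericyte, 0.02 for endothelial and −0.45 for cardiomyocyte markers. The 9 cardiomyocyte markers did not move together, with 6 negative and 3 positive. They ran from −1.18 for Actc1, the only 1 called, to 1.01 for Myh7. Of the 22 targets, Acta2 and Tagln are also in the smooth muscle list, Col1a1 and Col1a2 in the fibroblast list, and Postn and Comp in the activated fibroblast list, whose 7 genes summed to 469 to 2673 CPM in ISO and 120.3 to 152 CPM in saline. Macrophage markers were positive in 10 of 10 with 5 called, and summed to 812 to 1828 CPM in ISO and 363 to 447 CPM in saline, with ISO replicate 3 highest and no marker at 0. The part of these cells in the target list and in the other related lists was not tested.

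**Figure D4:**
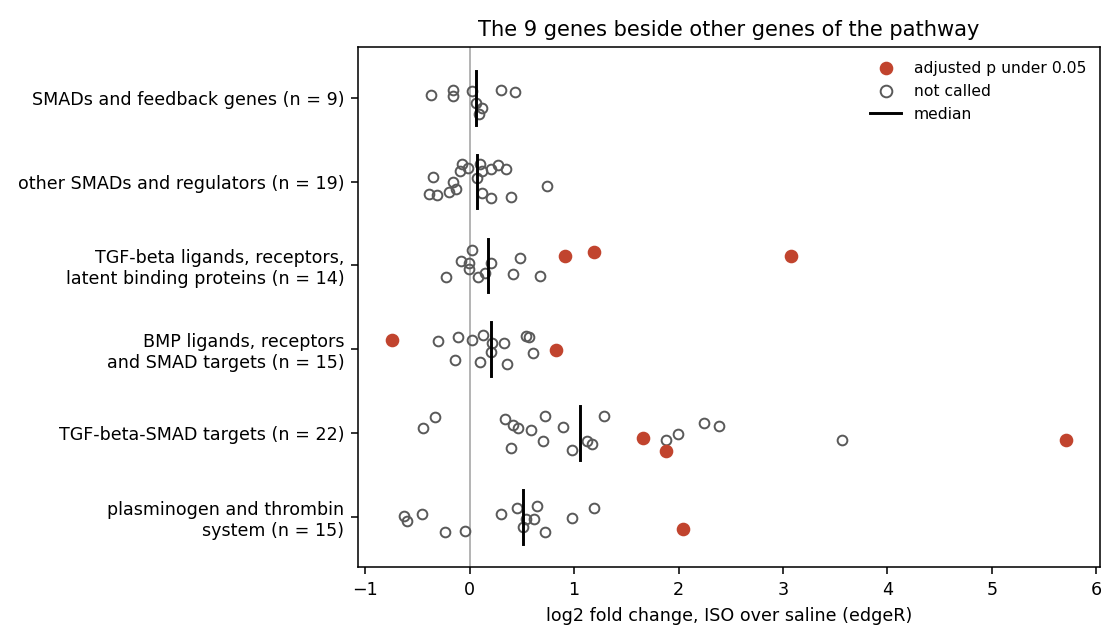
Log2 fold change, ISO over saline, of each tested gene in the SMAD and feedback set and in 5 lists of related genes, filled where the edgeR adjusted p was under 0.05, with a line at each median. The 9 genes lie between −0.38 and 0.43, while the TGF-beta-SMAD targets have a median of 1.05 and reach 5.71 for Postn, which is 4.13 without ISO replicate 3. The 9 genes and the lists were chosen with earlier results of these data known.

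The last list held proteases and receptors of the plasminogen and thrombin system, on which Serpine2 acts, and a wider set of serpins. Of 15 tested, 1 was called higher and none lower, with a median of 0.51. Of all tested genes, 1.47% were called higher and 1.5% lower. The called gene was Plaur, the urokinase receptor, with 5.26, 5.11 and 6.30 CPM in ISO, against 1.70, 1.00 and 1.33 CPM in saline, a rise of 2.05 (95% interval 1.38 to 2.71, edgeR adjusted p = 0.0164). Without ISO replicate 1 it was 2.08 (edgeR adjusted p = 0.0617), and without saline replicates 1 to 3 it was 2.25, 1.87 and 2.04 (edgeR adjusted p = 0.0594, 0.0625 and 0.0946). DESeq2 called 6 genes of this list higher and 1 lower, and 10.2% of all tested genes in either direction.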

How the data were processed

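Bulk RNA-seq of 3 ISO and 3 saline rat hearts was analysed. Per the series text, the authors aligned 150 bp paired reads to a rat genome by HISAT2 and counted them by featureCounts, and the deposited values are whole-number counts per gene, not normalised. Versions, annotation release and strand setting are not given in the sources used. A mouse build, mm10, is named in the submitters' processing notes, although every named row has a rat Ensembl identifier. As the strand setting is not given, it is not known whether overlapping antisense genes were counted apart.

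Of 33889 rows, 1006 had no gene name and took 0.981% to 1.32% of a library. They were left out. A symbol on several rows stood for its row of largest total, which touched none of the 9 genes. No 2 libraries were alike enough to be duplicates.

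The main test was that of edgeR 4.0.16 (R 4.3.3; TMM scaling, default filter, quasi-likelihood F test, Benjamini-Hochberg over all 13766 tested genes). The steps were tested on simulated data. The standard error was the fold change divided by the square root of F, and the 95% intervals follow from it. Log2 CPM used a prior count of 2. DESeq2 1.42.0, limma 3.58.1 (voom), other scalings and filters, the series' own rule, a replicate block and each library left out were alternatives. The 9 genes and the 5 related lists were chosen with earlier results of these data known. Named genes of a list were its called genes with the smallest p, up to 3, or the 2 with the highest mean CPM, which transcript length also sets, plus 14 fixed genes, of which 1 is not reported here. Cldn5 and Vwf were singled out after their values were seen. Promoter windows came from RefSeq in GRCr8. Proteins were not used.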

Additional observations from a re-analysis of the deposited data

How the results depend on the processing

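None of the 9 genes was called under any of the 17 alternatives, which were 11 changes of setting and 6 omissions of a library. Over all genes edgeR with TMM scaling and the default filter called 203 higher and 206 lower. No scaling gave 280 higher and 123 lower and moved the median of all genes to 0.13, so log2 changes of the 9 genes were about that much more positive, with no change of sign. No filter gave 322 higher, and DESeq2 752 higher and 653 lower. The series' rule was a log2 fold change beyond 0.5 in either direction with an unadjusted p under 0.05. Applied here to the edgeR fit, it gave 1193 higher and 619 lower, which are not counts at an adjusted p. Leaving out single libraries gave 6 to 492 higher and 5 to 346 lower. Across those omissions Smad7 ran from −0.062 to 0.34, Skil from −0.079 to 0.14 and Ski from −0.0024 to 0.040, so their signs are not settled. The other 6 kept their sign, with Serpine2 from 0.32 to 0.58 and Bambi from −0.51 to −0.27. The cause of these shifts was not tested.

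Samples of equal number had correlations of deviations of 0.0874, −0.0989 and 0.0176, and those of unequal number ran from −0.151 to 0.119. No label says that the numbers mark a pairing. With 3 libraries per group these correlations cannot decide it. With the replicate number as a block, 15 genes were called higher and 13 lower and none of the 9, and every related call named here was lost. Keeping rows without a gene name, added after the data were seen, gave 204 higher and 203 lower.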
